A study of Homo sapiens with 2 samples.

Results

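The genes described here are 34 genes of fatty acid metabolism, picked by symbol from the 36601 genes of each matrix: 4 of synthesis, 10 of elongation, 4 of desaturation, 3 of acyl-CoA activation, 12 of oxidation, and SPART. SPART encodes spartin, a protein tied to the turnover of lipid droplets. All 34 had at least 1 UMI (unique molecular identifier, here 1 counted transcript molecule) in each library. Single-cell RNA-Seq had been carried out on LNCaP_C4-2B, a castration-resistant strain recovered from LNCaP cells grown in vivo, and on LNCaP_FGC, a human prostate carcinoma line that was never selected as a clone. Both lines were cultured in RPMI1640 with 10% FBS and antibiotics and received no treatment. There was 1 library of 1850 cells per line, and the libraries carry different batch labels, so that line and batch cannot be told apart.

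Fatty acids are built in the cytosol from citrate, which ACLY cleaves to acetyl-CoA, ACACA and ACACB carboxylate to malonyl-CoA, and FASN assembles into palmitate. Enzymes of the endoplasmic reticulum then lengthen the chain (the ELOVL, HSD17B12, HACD and TECR genes) or add double bonds (SCD, SCD5, FADS1 and FADS2). Long-chain acyl-CoA synthetases of the ACSL family activate fatty acids, the CPT genes carry them into mitochondria, and beta-oxidation shortens them there and in peroxisomes. Prostate tumors are known for active fatty acid synthesis and for high AMACR, the racemase that prepares branched-chain fatty acids for oxidation.

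The 2 libraries held 35149989 UMIs in LNCaP_C4-2B and 35150013 UMIs in LNCaP_FGC, with medians of 17566.5 and 18292 UMIs and 4133 and 4909.5 genes per cell. No cell barcode was shared. Mitochondrial transcripts took 8.35% of UMIs in LNCaP_C4-2B and 6.27% in LNCaP_FGC, and ribosomal protein transcripts 28.2% and 23.2%. Of the luminal prostate markers, KLK3 stood at 2770.2 CPM (UMIs scaled so that each library sums to 1000000) in LNCaP_C4-2B and 781 CPM in LNCaP_FGC, and KRT8 at 208 CPM and 257 CPM. The 5 adipocyte markers summed to 0.284 CPM and 0.427 CPM, with 2 and 1 of them at 0, and the 4 hepatocyte markers to 10.6 CPM and 13.9 CPM, mostly APOA1 and TTR, with ALB at 0 UMIs and 43 UMIs. Intervals given here are 95% and cover counting error only, since 1 library per line allows no test.

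Levels were compared as the ratio of CPM in LNCaP_C4-2B over LNCaP_FGC. The median gene with at least 10 UMIs had a log2 ratio of -0.49 by CPM. That shift was -0.33 once RP and MT genes were dropped from the denominators, -0.07 after median-of-ratios scaling and -0.0021 after TMM scaling. A gene is called higher or lower here when its ratio was 1.5-fold or more away from the median gene's. By that rule 11 of the 33 members with at least 10 UMIs were higher, 4 were lower and 18 were within. Over all 17897 genes measured, 26% were higher and 26.4% were lower. Of the 31 members with at least 100 UMIs, 11 were higher and 3 lower, beside 22.8% higher and 22.3% lower among all 12764 genes at that level. The median log2 ratio of the members was -0.28, which is 0.21 above the median gene. Together the members made up 0.321% of UMIs in LNCaP_C4-2B and 0.289% in LNCaP_FGC.

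**Figure D1:**
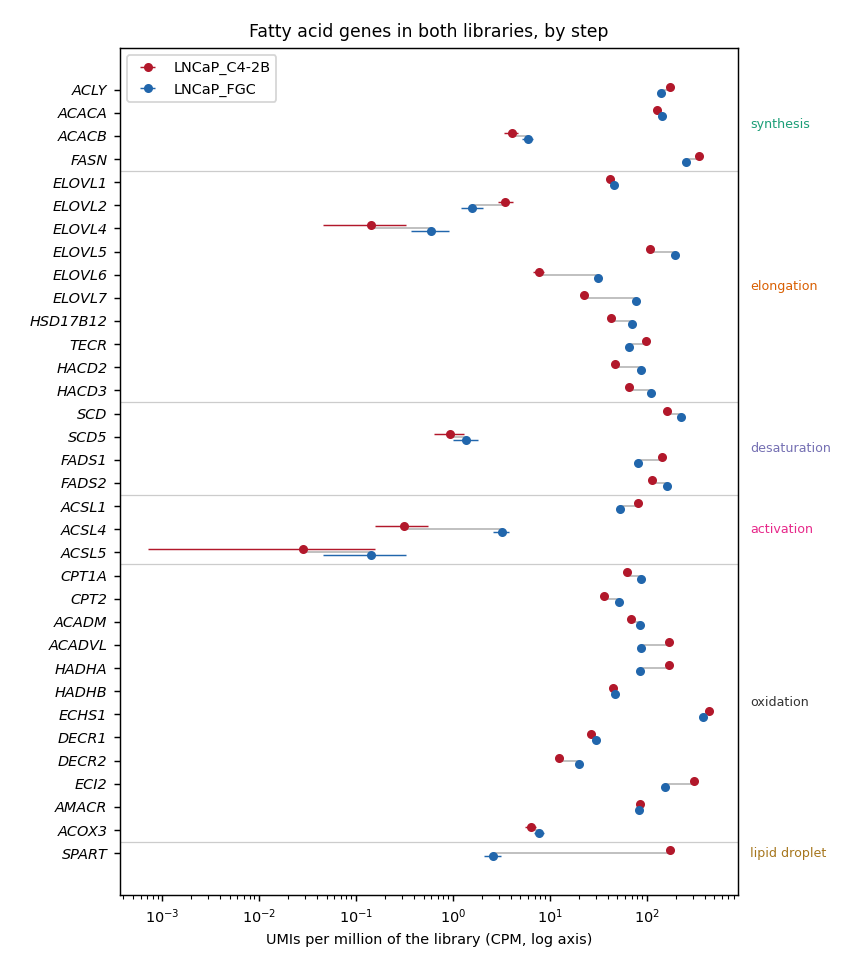
Level of each of the 34 genes in both libraries, as CPM on a log axis, ordered by step; points are library totals and bars are 95% counting intervals. SPART has the widest gap, at 172.5 CPM in LNCaP_C4-2B and 2.59 CPM in LNCaP_FGC, while most other members lie close together.

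By step, synthesis and oxidation genes had the larger sums in LNCaP_C4-2B, and elongation genes had the larger sum in LNCaP_FGC. Synthesis genes summed to 661 CPM in LNCaP_C4-2B and 548 CPM in LNCaP_FGC (1.21-fold higher, interval 1.18 to 1.23), of which FASN was 53.2% and 46.6%. Oxidation genes summed to 1436 CPM and 1124 CPM (1.28-fold higher, 1.26 to 1.29). Elongation genes summed to 438 CPM in LNCaP_C4-2B and 689 CPM in LNCaP_FGC (1.57-fold lower, 1.54 to 1.61). Set against the median gene, the middle member of the synthesis group lay 0.56 above on the log2 scale, that of the oxidation group 0.35 above, and that of the elongation group 0.33 below. Desaturation genes summed to 419.6 CPM and 472 CPM (1.13-fold lower, 1.10 to 1.15), with a median member 0.02 below the median gene.

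Of the synthesis genes, FASN (fatty acid synthase, GRCh38 chromosome 17, 82078338 to 82098294) had 12363 UMIs, or 352 CPM, in LNCaP_C4-2B and 8964 UMIs, or 255 CPM, in LNCaP_FGC. It was 1.38-fold higher (1.34 to 1.42) in LNCaP_C4-2B, and ACLY was 1.24-fold higher (1.20 to 1.29), at 176 CPM against 141 CPM. ACACA, the carboxylase of cytosolic synthesis, ran the other way by CPM, with 129 CPM in LNCaP_C4-2B and 145 CPM in LNCaP_FGC, but lay 0.31 above the median gene. ACACB, the carboxylase tied to the mitochondrial surface, was low in both, at 4.04 CPM and 5.95 CPM, and its gene overlaps UNG on the same strand, so that its reads are less certain. Of the 4 synthesis genes, then, FASN and ACLY were called higher and none lower.

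Elongation held both directions. The elongase genes ELOVL6 and ELOVL7, which act on saturated chains, and ELOVL4, which makes very long chains, were lower in LNCaP_C4-2B. ELOVL7 (chromosome 5, 60751791 to 60844274) had 791 UMIs in LNCaP_C4-2B and 2725 UMIs in LNCaP_FGC, or 22.5 CPM against 77.5 CPM, a level 3.44-fold lower (3.18 to 3.73). ELOVL6 had 270 and 1107 UMIs, or 7.68 CPM in LNCaP_C4-2B and 31.5 CPM in LNCaP_FGC. The 4.20-fold lower ratio of ELOVL4 rests on 5 UMIs in LNCaP_C4-2B and 21 in LNCaP_FGC (1.54 to 14.3). ELOVL6 and ELOVL7 were lower within each cell cycle phase too, ELOVL6 by 3.86-fold in G1 cells, 3.77-fold in S cells and 4.50-fold in G2M cells, and ELOVL7 by 3.86-fold, 2.74-fold and 3.49-fold.

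In the other direction, ELOVL2, an elongase of polyunsaturated chains, had 123 UMIs in LNCaP_C4-2B and 56 UMIs in LNCaP_FGC (2.20-fold higher, 1.59 to 3.07), while ELOVL2-AS1 on the opposite strand had 48 and 2 UMIs. TECR, the enoyl reductase that closes each elongation round, was 1.48-fold higher (1.40 to 1.56), with 97.6 CPM against 66.2 CPM. HACD2 and HACD3, dehydratase genes, had 47.0 and 65.2 CPM in LNCaP_C4-2B against 86.7 and 112 CPM in LNCaP_FGC. HSD17B12, the ketoacyl reductase, had 42.9 CPM against 70.4 CPM, and ELOVL5, which elongates polyunsaturated chains, 109.5 CPM against 197 CPM. All 4 were between 0.23 and 0.40 below the median gene on the log2 scale and were not called. ELOVL1, an elongase of saturated very long chains, had 41.8 CPM against 45.7 CPM, lay 0.36 above the median gene and was not called either. The elongation genes therefore did not share 1 direction.

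**Figure D2:**
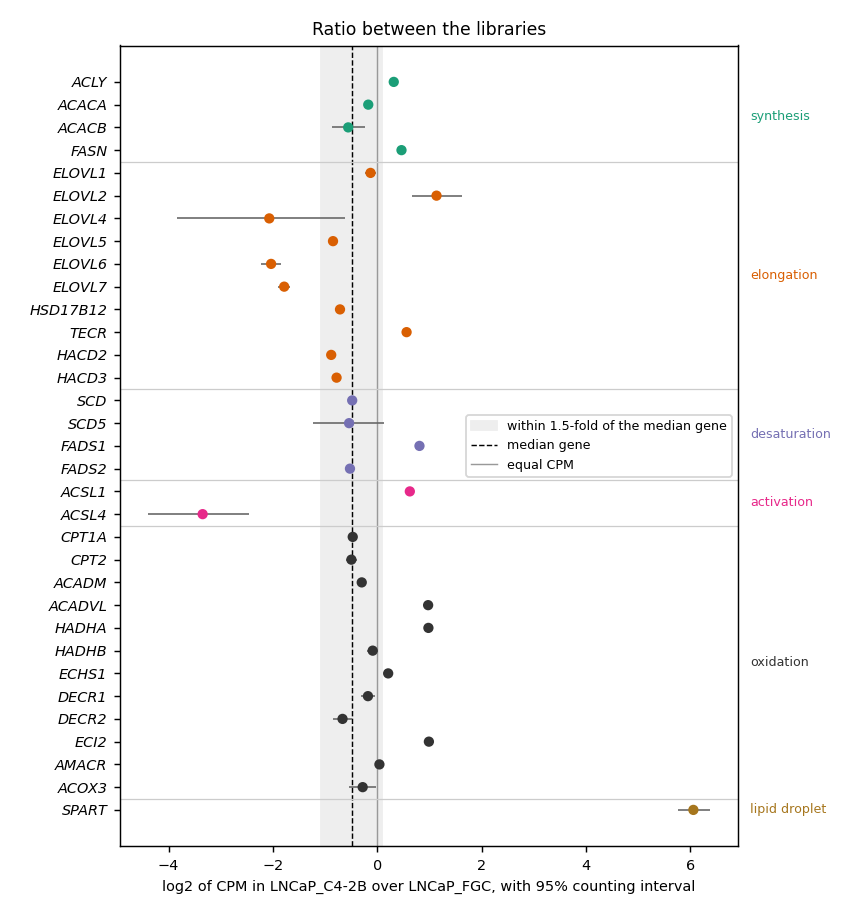
Log2 ratio of each member in LNCaP_C4-2B over LNCaP_FGC with its 95% counting interval, colored by step, for the 33 members with at least 10 UMIs. The dashed line is the median gene at -0.49 and the grey band spans 1.5-fold on either side; 11 members lie to the right of the band and 4 to the left.

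Among desaturases the neighbors FADS1 and FADS2 did not share a ratio. FADS1, which encodes a desaturase of polyunsaturated fatty acids, had 5030 UMIs, or 143 CPM, in LNCaP_C4-2B and 2872 UMIs, or 81.7 CPM, in LNCaP_FGC (1.75-fold higher, 1.67 to 1.83). FADS2, whose product acts earlier in the same pathway, had 3997 UMIs, or 114 CPM, in LNCaP_C4-2B and 5746 UMIs, or 163 CPM, in LNCaP_FGC (1.44-fold lower by CPM, and 0.04 below the median gene on the log2 scale). SCD, the desaturase that makes oleate, had 162 CPM against 226 CPM, which is the ratio of the median gene. SCD5 was scarce, with 33 and 48 UMIs.

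A similar split was seen between the subunit genes of the mitochondrial trifunctional protein, which runs the last steps of beta-oxidation on long chains. HADHA, the alpha subunit, had 5958 UMIs, or 169.5 CPM, in LNCaP_C4-2B and 3021 UMIs, or 85.9 CPM, in LNCaP_FGC, and was 1.97-fold higher (1.89 to 2.06). HADHB, the beta subunit, had 1573 UMIs, or 44.8 CPM, against 1672 UMIs, or 47.6 CPM, a ratio of 0.941 (0.878 to 1.01). The intervals of the 2 ratios do not overlap, but they cover counting error only. How often 2 genes differ this much was not counted, and 26% of all genes were higher and 26.4% lower. HADHA was 1.93-fold, 1.92-fold and 2.06-fold higher within G1, S and G2M cells.

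Within both pairs the genes start close together on opposite strands and yet differed in ratio, which is why their start regions are shown. The windows are RefSeq's (GRCh38.p14), 250 bases before to 50 after the start, 5′ to 3′ along each gene, found for 30 of the 34 members (48 windows) and not for FASN, DECR1, DECR2 and HSD17B12. The HADHA and HADHB starts lie 307 bases apart and their windows share 194 bases, while the starts shown for FADS1 and FADS2 lie 599 bases apart. Capitals mark CCAAT (or ATTGG on the other strand), GGGCGG (or its complement), the palindrome CACGTG, and the sterol element letters CACCCCAC.
HADHA, chr2:26244583-26244882, minus strand: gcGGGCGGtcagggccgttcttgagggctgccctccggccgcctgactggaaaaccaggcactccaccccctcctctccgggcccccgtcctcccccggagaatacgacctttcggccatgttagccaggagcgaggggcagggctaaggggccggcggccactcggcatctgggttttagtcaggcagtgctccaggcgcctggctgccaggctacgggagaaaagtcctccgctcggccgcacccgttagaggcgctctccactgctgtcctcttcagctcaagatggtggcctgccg
HADHB, chr2:26244689-26244988, plus strand: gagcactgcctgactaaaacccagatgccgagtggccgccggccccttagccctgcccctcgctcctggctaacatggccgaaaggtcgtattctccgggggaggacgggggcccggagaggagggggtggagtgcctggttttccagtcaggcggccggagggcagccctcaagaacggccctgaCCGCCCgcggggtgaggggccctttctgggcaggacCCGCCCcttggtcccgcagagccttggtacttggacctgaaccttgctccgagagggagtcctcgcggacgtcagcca
FADS1, chr11:61816954-61817253, minus strand: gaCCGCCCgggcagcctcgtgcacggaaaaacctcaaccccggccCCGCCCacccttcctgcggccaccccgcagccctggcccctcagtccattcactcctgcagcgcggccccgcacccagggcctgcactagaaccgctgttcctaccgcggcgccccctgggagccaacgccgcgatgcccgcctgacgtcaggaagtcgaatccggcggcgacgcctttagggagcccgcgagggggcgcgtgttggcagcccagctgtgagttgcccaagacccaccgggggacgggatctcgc
FADS2, chr11:61816154-61816453, plus strand: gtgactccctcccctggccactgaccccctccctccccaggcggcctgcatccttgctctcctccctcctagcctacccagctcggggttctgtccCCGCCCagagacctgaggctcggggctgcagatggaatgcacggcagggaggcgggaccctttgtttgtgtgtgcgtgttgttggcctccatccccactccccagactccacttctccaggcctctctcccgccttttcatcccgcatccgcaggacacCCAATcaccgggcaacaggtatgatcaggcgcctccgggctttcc
The trifunctional protein pair thus holds 1 GGGCGG in the window of HADHA and 2 in that of HADHB, 1 of them the same site read from the other strand. FADS1 had 2, and the FADS2 window 1 together with 1 CCAAT.

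Over all 35116 promoter windows, GGGCGG was found on either strand in 45.0%, against 34 of the 48 member windows (70.8%). CCAAT was in 34.6% of all windows and 16 of the members' (33.3%). CACGTG, an E-box, was in 7.26% of all windows and 4 of the members', and CACCCCAC, a core of sterol-responsive elements, in 2.79% and 1, a window of ACSL1. The letters CCGGAAGT, an ETS-type site, were in 4.14% of all windows and 1 member window, that of CPT2. AGGTCA, a nuclear receptor motif, was in 13.8% of all windows and in 4 of the members'. These matches describe letters only, and windows of the same gene can overlap.

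The other oxidation genes showed 3 more that were higher and none that was lower. ECI2, an isomerase for unsaturated fatty acids, had 10832 UMIs, or 308 CPM, in LNCaP_C4-2B and 5457 UMIs, or 155 CPM, in LNCaP_FGC (1.98-fold higher, 1.92 to 2.05). ACADVL, the dehydrogenase of very long chains, was 1.96-fold higher (1.88 to 2.05), with 170.4 CPM against 86.7 CPM. ECHS1, the short-chain enoyl-CoA hydratase, had 442 CPM in LNCaP_C4-2B and 383 CPM in LNCaP_FGC. It was 1.16-fold higher by CPM (1.13 to 1.18) and lay 0.69 over the median gene as a log2 value, but it was not called in G1 cells. The carnitine palmitoyltransferase genes CPT1A and CPT2, the gate to mitochondria, had 63.4 and 36.7 CPM in LNCaP_C4-2B against 87.9 and 51.8 CPM in LNCaP_FGC, both within 0.02 of the median gene on the log2 scale. ACADM, DECR1, DECR2, ACOX3 and AMACR were within as well, AMACR with 85.6 CPM against 83.2 CPM.

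Of the activating enzymes, ACSL1 had 2878 UMIs, or 81.9 CPM, in LNCaP_C4-2B and 1868 UMIs, or 53.1 CPM, in LNCaP_FGC (1.54-fold higher, 1.45 to 1.63). ACSL4, which prefers arachidonate, had 11 UMIs in LNCaP_C4-2B and 112 UMIs in LNCaP_FGC, a 10.2-fold lower level (5.48 to 21.0). It was detected in 6 of 1665 LNCaP_C4-2B cells and 66 of 1623 LNCaP_FGC cells once each cell had been thinned to 11901 UMIs. ACSL5 had 1 UMI against 5 and was not compared. ACSL1 alone made up 99.6% of the 3 genes' UMIs in LNCaP_C4-2B and 94.1% in LNCaP_FGC. ACSL3, a related synthetase outside the 34, had 207 CPM and 229 CPM.

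SPART (chromosome 13, 36301638 to 36370180) differed most. It had 6065 UMIs, or 172.5 CPM, in LNCaP_C4-2B and 91 UMIs, or 2.59 CPM, in LNCaP_FGC, which is 66.6-fold higher (54.2 to 82.9), and 73.9-fold, 73.8-fold and 57.3-fold higher within G1, S and G2M cells. Once every cell was thinned to 11901 UMIs, a SPART UMI was seen in 75.6% (73.5% to 77.7%) of LNCaP_C4-2B and 3.02% (2.24% to 3.97%) of LNCaP_FGC cells. Each library holds 1 cell line, so that no cells known to lack SPART gave a background share, and UMIs from free RNA were not told apart from those of the cells. SPART was at 0 in 406 LNCaP_C4-2B cells (24.4%), where a Poisson spread at the same mean would leave 13.2% without, and single cells held up to 18. Of the 3 RefSeq start windows of SPART, the one that carries both a CACGTG and a GGGCGG is shown, since SPART had the largest difference of the members.
SPART, chr13:36346345-36346644, minus strand: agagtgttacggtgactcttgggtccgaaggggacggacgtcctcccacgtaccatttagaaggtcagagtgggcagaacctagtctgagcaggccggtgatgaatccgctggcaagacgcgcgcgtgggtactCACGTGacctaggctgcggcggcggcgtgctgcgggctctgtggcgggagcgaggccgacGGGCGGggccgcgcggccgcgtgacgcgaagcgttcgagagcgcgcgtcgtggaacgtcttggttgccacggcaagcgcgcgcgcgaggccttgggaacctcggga

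Genes beside SPART were examined after its difference had been seen. SOHLH2, 87.0 kb away on the same strand and a transcription factor gene of germ cells, had 1167 UMIs in LNCaP_C4-2B and 16 UMIs in LNCaP_FGC (72.9-fold higher, 44.7 to 128). CCNA1, 61.3 kb away on the other strand, had 17 UMIs and 0, and the antisense transcript SPART-AS1 18 and 2. Farther out the ratios were smaller, at 1.73 for RFXAP, 2.38 for EXOSC8 and 1.51 for ALG5, NBEA had 113 and 112 UMIs, and SMAD9 was 2.05-fold lower. Within LNCaP_C4-2B, SOHLH2 stood at 22.6 CPM in cells without a SPART UMI and 39.2 CPM in cells with one (1.74-fold lower, 1.42 to 2.15). RFXAP, farther out, also differed, at 5.38 CPM against 11.2 CPM (2.08-fold lower, 1.37 to 3.28). EXOSC8 was 1.20-fold lower (1.06 to 1.38), while the intervals of SMAD9, ALG5 and NBEA included equal levels. The G1 share was 58.6% in cells without SPART and 43.1% in those with it.

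In LNCaP_FGC, 74 of 1850 cells had a SPART UMI in the deposited counts and 11 of them had at least 2. Of these 74 cells, 53 (71.6%, 59.9% to 81.5%) had no ETV1 UMI, against 557 of the 1776 cells without SPART (31.4%, 29.2% to 33.6%). Of the 11 cells with at least 2 SPART UMIs, 10 lacked ETV1. None of the 11 held a UMI of PAGE1, LINC00632 or HBQ1, transcripts with means of 16.7, 1.65 and 1.19 UMIs per LNCaP_C4-2B cell. Of all 74, 0 held PAGE1, 0 held LINC00632 and 2 held HBQ1. Of the 1776 cells without SPART, 37, 11 and 29 did. SPART UMIs in LNCaP_FGC thus sat mostly in cells without ETV1.

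**Figure D3:**
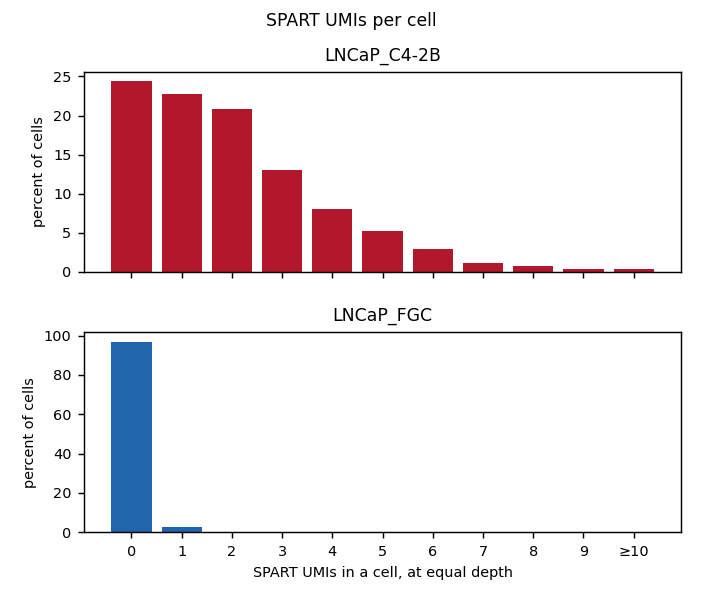
Share of cells (percent) by number of SPART UMIs per cell at equal depth, 1665 LNCaP_C4-2B cells above and 1623 LNCaP_FGC cells below. Most LNCaP_C4-2B cells hold at least 1 SPART UMI and 97.0% of LNCaP_FGC cells hold none.

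LNCaP_FGC cells were next compared by ETV1, an ETS transcription factor gene with 0 UMIs in LNCaP_C4-2B and 5426 in LNCaP_FGC. At equal depth, 622 LNCaP_FGC cells had 0 ETV1 UMIs and 741 had at least 2. Some of the cells at 0 may hold ETV1 below detection. KLK3 (prostate-specific antigen) averaged 232 CPM in cells without ETV1 and 1300 CPM in cells with it. The G1 share was 40.0% in cells without ETV1 and 46.3% in cells with it, and ribosomal protein transcripts took 21.9% and 23.8% of UMIs. The part of these differences in the results that follow was not tested beyond the within-phase values given.

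Of the 32 members with at least 10 UMIs in these cells, 5 were higher without ETV1 (ELOVL2, ELOVL6, ELOVL7, ECI2 and SPART) and 1, AMACR, was lower. Over all 14798 genes measured, 9.26% were higher and 7.71% lower by the same rule. Among the 28 members with at least 100 UMIs, 3 were higher and 1 lower, beside 2.87% higher and 2.96% lower of all 9999 genes at that level. The other 26 members lay within 1.5-fold of the median gene, whose log2 ratio was 0.08, FASN, SCD, FADS1, HADHA and ACADVL among them.

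AMACR (chromosome 5, 33986165 to 34008104) had 347 UMIs, or 46.9 CPM, in cells without ETV1 and 1042 UMIs, or 118 CPM, in cells with ETV1, and so was 2.52-fold lower (2.23 to 2.85) without it. The same direction was seen in each phase, with 66.8 CPM against 151 CPM in G1 cells, 36.8 CPM against 93.6 CPM in S cells and 31.1 CPM against 87.4 CPM in G2M cells. Across cells with 0, 1, 2 to 3 and at least 4 ETV1 UMIs (622, 260, 427 and 314 cells), AMACR stood at 46.9, 71.1, 104 and 137 CPM. LNCaP_C4-2B cells, which hold no ETV1, had 84.4 CPM at the same depth, 1.80-fold higher (1.60 to 2.03) than LNCaP_FGC cells without ETV1 and below those with it (ratio 0.714, 0.661 to 0.772). AMACR in LNCaP_C4-2B thus lay between the LNCaP_FGC classes, although the totals of the libraries were close. The AMACR start window is shown because this gene differs both with ETV1 and with the cell cycle. It holds 1 CCAAT, read on the other strand. CCGGAAGT, found in 4.14% of all windows, was absent. Other ETS-type letters were not searched for, so that the presence of ETS sites was not tested.
AMACR, chr5:34008001-34008300, minus strand: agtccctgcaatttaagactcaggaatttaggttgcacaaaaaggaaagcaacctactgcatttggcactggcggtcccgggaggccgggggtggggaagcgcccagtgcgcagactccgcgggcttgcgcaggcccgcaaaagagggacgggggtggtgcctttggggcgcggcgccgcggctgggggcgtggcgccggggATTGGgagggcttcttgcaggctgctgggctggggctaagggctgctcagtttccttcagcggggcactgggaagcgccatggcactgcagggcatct

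ECI2 moved opposite to AMACR. It had 1508 UMIs, or 204 CPM, in cells without ETV1 and 1055 UMIs, or 119.6 CPM, in cells with ETV1 (1.70-fold higher without, 1.57 to 1.84). Over the 4 classes from 0 to at least 4 ETV1 UMIs it stood at 204, 159, 130.5 and 105 CPM. LNCaP_C4-2B cells were above all 4 classes at 308 CPM, 1.51-fold higher (1.43 to 1.60) than LNCaP_FGC cells without ETV1 and 2.57-fold higher (2.41 to 2.75) than those with it. Within phases the ratio without over with ETV1 was 1.84 in G1 cells, 1.51 in S cells, which did not reach the call there, and 1.68 in G2M cells.

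The elongases ELOVL6 and ELOVL7 had their lowest levels in LNCaP_C4-2B, yet within LNCaP_FGC they were higher in cells without ETV1. ELOVL7 had 755 UMIs, or 102 CPM, without ETV1 and 556 UMIs, or 63.1 CPM, with it (1.62-fold, 1.45 to 1.81), and 23.1 CPM in LNCaP_C4-2B. ELOVL6 had 306 UMIs, or 41.3 CPM, without ETV1 and 219 UMIs, or 24.8 CPM, with it (1.66-fold, 1.39 to 1.99), and 7.07 CPM in LNCaP_C4-2B. Against LNCaP_FGC cells without ETV1, the LNCaP_C4-2B levels were 4.41-fold lower for ELOVL7 (3.92 to 4.97) and 5.85-fold lower for ELOVL6 (4.77 to 7.20). In G2M cells alone neither reached the call, at ratios of 1.31 for ELOVL7 and 1.48 for ELOVL6, and in another random thinning the log2 ratio of ELOVL6 was 0.59, against 0.74, with 4 members then called higher. ELOVL2 was called on 18 UMIs against 11 (1.95-fold, 0.872 to 4.57). SPART had 53 UMIs without ETV1 and 3 with it, a ratio of 21.0 with an interval of 6.82 to 105.

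**Figure D4:**
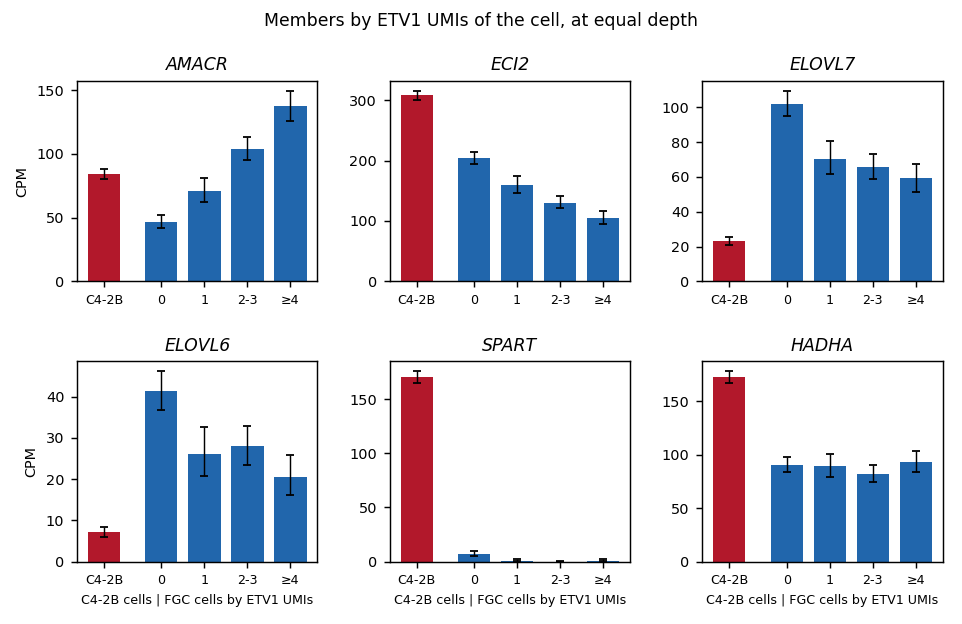
Level (CPM) of 6 members at equal depth, in LNCaP_C4-2B cells (red) and in LNCaP_FGC cells grouped by their ETV1 UMIs (blue); bars are group totals and error bars 95% counting intervals. AMACR goes from 46.9 to 137 CPM over the ETV1 classes and ECI2 from 204 to 105 CPM, while HADHA stays between 82.3 and 93.4 CPM.

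HADHA, ACADVL, FADS1 and FASN were higher in LNCaP_C4-2B than in LNCaP_FGC cells of either ETV1 class, in comparisons that share the LNCaP_C4-2B cells. HADHA was 1.91-fold higher than LNCaP_FGC cells without ETV1 (1.76 to 2.08) and 1.99-fold higher than those with it (1.84 to 2.15). ACADVL was 1.94-fold and 1.84-fold higher, FADS1 1.71-fold and 1.75-fold, and FASN 1.40-fold and 1.28-fold. Of the 28 members with at least 100 UMIs over the 4 classes, 3 (CPT1A, ACADM and AMACR) went up at each ETV1 class and 7 (ACLY, ELOVL5, ELOVL7, TECR, CPT2, ECHS1 and ECI2) went down at each, a pattern looked for after the data had been seen. Of all 10390 genes at that level, 5.69% went up and 12.7% went down at each class. CPT1A stood at 78.9, 86.9, 96.4 and 104 CPM. HACD2 stood at 69.7, 86.6, 84.4 and 106 CPM in the same order.

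By cell cycle phase, AMACR was high in G1 in both lines and FADS1 and ELOVL6 were low there. In LNCaP_C4-2B, 904, 390 and 556 cells were called G1, S and G2M, and in LNCaP_FGC 804, 463 and 583. G1 cells over the other cells gave 3 members higher (SCD, AMACR and ACSL4, the last on 11 UMIs) and 2 lower (ELOVL6 and FADS1) in LNCaP_C4-2B, where 11.2% of all genes were higher and 11.6% lower. In LNCaP_FGC, AMACR was higher and ACACB, ELOVL6, FADS1 and SPART were lower, beside 10.8% and 12.8% of all genes. AMACR stood at 112 CPM in G1, 77.5 CPM in S and 55.9 CPM in G2M cells of LNCaP_C4-2B and at 114, 67.3 and 56.0 CPM in those of LNCaP_FGC. G1 cells were 1.72-fold (1.60 to 1.85) and 1.87-fold (1.73 to 2.01) above the others.

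FADS1 had 96.9 CPM in G1, 190.2 CPM in S and 171 CPM in G2M cells of LNCaP_C4-2B, and 49.6, 119 and 93.5 CPM in LNCaP_FGC. G1 cells were 1.85-fold (1.74 to 1.96) and 2.12-fold (1.94 to 2.30) below the others. FADS2 had the same order of phases at a smaller size in both lines. It had 104, 126 and 117 CPM in LNCaP_C4-2B and 132, 193 and 180.3 CPM in LNCaP_FGC. FEN1, a replication gene that ends 2.39 kb from FADS1 on the other strand and lies inside the FADS2 gene model on its strand, was 4.72-fold higher in S cells over the others in LNCaP_C4-2B and 3.17-fold higher in LNCaP_FGC, against 1.48-fold and 1.74-fold for FADS1. Whether FEN1 transcripts enter these counts was not tested. ELOVL6 had 5.67, 9.87 and 8.78 CPM in G1, S and G2M cells of LNCaP_C4-2B and 21.9, 37.2 and 39.5 CPM in those of LNCaP_FGC. ACACB was highest in S cells in both lines, at 5.47 and 8.39 CPM, on 46 and 76 UMIs. Whether transcripts of UNG, which overlaps ACACB on the same strand, enter these counts was not tested. SCD was 1.49-fold higher (1.41 to 1.57) in G1 cells of LNCaP_C4-2B, and 1.16-fold (1.11 to 1.21) in those of LNCaP_FGC.

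**Figure D5:**
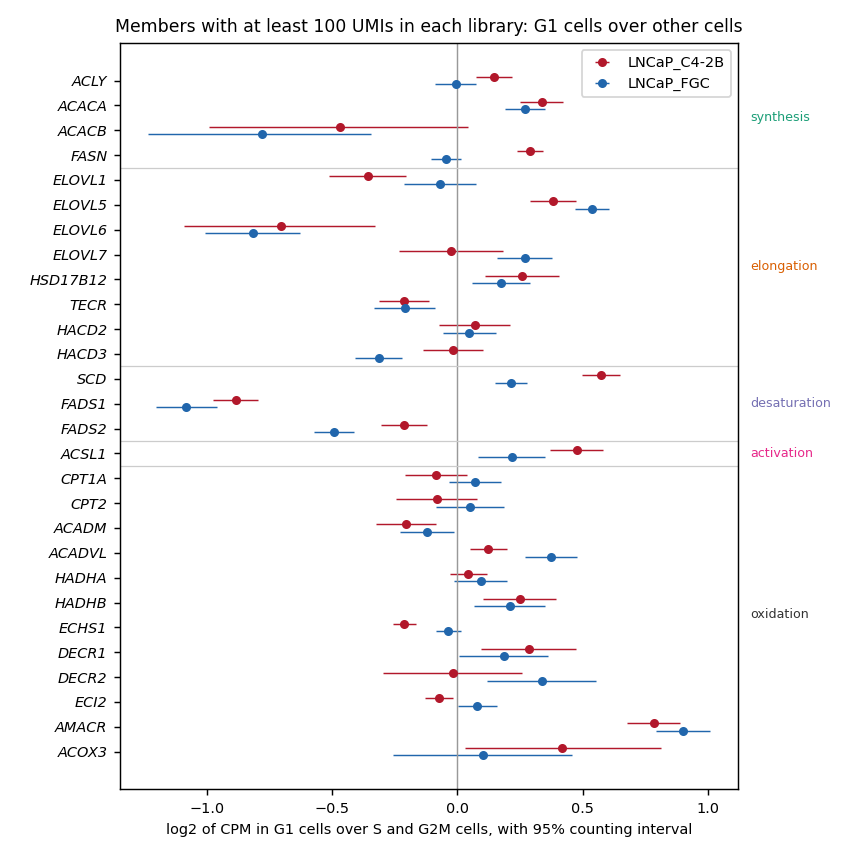
Log2 of the level in G1 cells over S and G2M cells for members with at least 100 UMIs in each library, LNCaP_C4-2B in red and LNCaP_FGC in blue, with 95% counting intervals. AMACR lies far to the right and FADS1 far to the left in both lines, at 1.72-fold and 1.87-fold above the other cells for AMACR.

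Cells of 1 line were not uniform in these genes. For AMACR the variance of UMIs over their mean was 1.74 in LNCaP_C4-2B and 2.12 in LNCaP_FGC at equal depth, at percentile 99 of the 100 genes nearest in level in both lines. FASN had a ratio of 3.08 in LNCaP_C4-2B, with up to 50 UMIs in 1 cell, and 1.58 in LNCaP_FGC, with up to 16. ELOVL5 was at 1.42 in LNCaP_C4-2B and 2.34 in LNCaP_FGC. HADHA was among the most even, with 1.09 in LNCaP_C4-2B and 0.992 in LNCaP_FGC, at percentiles 25 and 1.

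Across cells, members averaging at least 0.5 UMIs per cell were correlated, 210 pairs of 21 members in LNCaP_C4-2B and 253 pairs of 23 members in LNCaP_FGC, and FASN with SCD had the highest value in both. Spearman's rho was 0.256 over 1665 LNCaP_C4-2B cells and 0.209 over 1623 LNCaP_FGC cells, all thinned to 1 depth, and cells of 1 library share that library. ACSL1 followed FASN at 0.209 in LNCaP_C4-2B, and FADS1 went with FADS2 at 0.175 and 0.179. AMACR and ECI2 had the lowest value in LNCaP_FGC, at -0.154. Such values are weak. Cells were then split by FASN itself, a grouping chosen after the data had been seen. In LNCaP_C4-2B, SCD stood at 300.4 CPM in the 212 cells with at least 8 FASN UMIs and 128.5 CPM in the 871 cells at or below the median of 3 (2.34-fold higher, 2.14 to 2.56). ACSL1 stood at 144 CPM against 68.2 CPM, and ELOVL5 at 162 CPM against 96.5 CPM. Of the members, 7 were higher and 0 lower, beside 9.42% and 9.50% of all genes. The 7 include FASN, whose call was set by the split, and SCD5, on 4 UMIs against 8 (interval 0.453 to 7.67). HADHA, CPT1A and CPT2 were not called, at ratios of 0.966, 0.963 and 0.712. Beyond the 34 genes, INSIG1, which holds back sterol-regulated transcription, was 2.20-fold higher (1.97 to 2.45) in the FASN-high cells and ACSS2, which makes acetyl-CoA from acetate, 2.01-fold higher (1.49 to 2.70). In LNCaP_FGC, 203 cells held 6 or more FASN UMIs and 1065 were at or below 3. The ratios were smaller there, with SCD at 1.52, ACSL1 at 1.43, ELOVL5 at 1.10, INSIG1 at 1.37 and ACSS2 at 1.14. Of the members, 3 were higher in that split and 1 lower, beside 6.03% and 11.3% of all genes. The 3 were FASN, set by the split, SCD, and ACSL4 on 14 UMIs against 43 (interval 0.863 to 3.18). The lower member was SCD5, on 2 UMIs against 19 (0.0624 to 2.29). The G1 share was 61.3% in FASN-high and 44.8% in FASN-low cells of LNCaP_C4-2B, against 44.3% and 44.6% in LNCaP_FGC. In G1 cells of LNCaP_C4-2B over the others, SCD, ACSL1 and ELOVL5 had ratios of 1.49, 1.39 and 1.30. FADS2, also called higher in the FASN split, had 0.863. The part of the cell cycle in this split was not tested.

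Other genes of the same pathways were counted from 4 lists, to be read against the 26% higher and 26.4% lower of all genes. Of 18 measured genes of fatty acid synthesis and modification outside the members, 9 were higher in LNCaP_C4-2B and 3 lower. Among them MLYCD, which breaks down malonyl-CoA, was 1.65-fold higher (1.46 to 1.85) and MCAT, of mitochondrial synthesis, 1.53-fold higher, while MID1IP1, an activator of acetyl-CoA carboxylase, was 1.71-fold lower by CPM and not called. Of 34 other oxidation genes, 9 were higher and 7 lower, near the shares over all genes. ACADL, a long-chain dehydrogenase, had 848 UMIs in LNCaP_C4-2B and 75 UMIs in LNCaP_FGC (11.3-fold higher, 8.92 to 14.5), and ETFB, the electron acceptor of the dehydrogenases, was 2.49-fold higher, whereas ETFDH, which takes the electrons onward, was 2.77-fold lower (2.53 to 3.03). CROT, the peroxisomal octanoyltransferase, was 3.94-fold lower (3.58 to 4.34).

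Of 27 regulators 6 were higher and 4 lower, neither count above the shares over all genes. PRKAA2, a catalytic subunit of AMP-activated kinase, was 2.75-fold higher (2.45 to 3.09), and PPARG, a nuclear receptor gene of lipid storage, 2.65-fold lower. PRKAA1, the other catalytic subunit gene, named here after its values had been seen, was 2.20-fold lower (2.05 to 2.35). INSIG1 was 2.00-fold higher (1.89 to 2.11), at 117 CPM against 58.5 CPM, whereas SREBF1 and SREBF2, the genes of the sterol-regulated transcription factors, were within, SREBF1 with 91.6 CPM against 133 CPM and SREBF2 with 34.1 CPM against 37.7 CPM. Of 24 genes of lipid droplets and uptake 8 were higher and 3 lower, against the same 26% and 26.4%, including LPL, lipoprotein lipase, with 437 UMIs in LNCaP_C4-2B and 3 in LNCaP_FGC (146-fold, 49.5 to 709). MGLL, the monoglyceride lipase, was 3.08-fold higher (2.73 to 3.48) and SLC27A5, a very long chain acyl-CoA synthetase, 2.41-fold higher. SLC27A3, of the same family, was 2.73-fold lower, and ABHD5, an activator of triglyceride lipase, 2.08-fold lower by CPM and not called.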

How the data were processed

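Libraries were made with the 10x Genomics 3′ v3.1 kit. Per the submitters' processing notes, Cell Ranger 6.0, Seurat 5.011 and GRCh38 were used. The authors filtered cells, drew 1850 per line and thinned the counts to a mean of 19000 UMIs per cell. UMI counts were deposited for each gene in each cell, without scaling. Depth ahead of that thinning was not used here.

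Counts were summed over cells and scaled to CPM with Python 3.11.15. Ratios have exact conditional intervals, levels exact Poisson intervals and shares exact binomial (Clopper-Pearson) intervals, all 95%. A gene was measured at 10 or more UMIs and called at 1.5-fold from the median gene. With 1 library per line no p-value is given. For ETV1 and shares of cells, each cell was thinned to 11901 UMIs (percentile 10 of LNCaP_C4-2B) and shallower cells were left out, leaving 1665 LNCaP_C4-2B and 1623 LNCaP_FGC cells. Phases were called with CellCycleScoring in Seurat 5.3.0 (R 4.3.3), and TMM factors came from edgeR 4.0.16. No doublet caller was run, since the authors had removed cells by doublet score. The ratio code was tested on simulated data. Promoter windows and GENCODE release 44 positions are on GRCh38, the build of the files.

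The members and lists were chosen with earlier results of these data known. All 34 members are named; values in full go to the 4 highest and 4 lowest ratios with at least 100 UMIs, and up to 3 genes at either end of each list. Alternatives were other scalings, minimums, folds, depths, phases and ETV1 cut-offs. A motif searched in the promoters is not reported here.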

Additional observations from a re-analysis of the deposited data

How the results depend on the processing

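Between the libraries, 8 to 12 members were higher over the alternatives run. Scaling moves all log2 ratios by the same amount and a call is set against the median gene, so that scaling cannot change the calls. The log2 ratios of the 15 called members also kept their sign under each scaling. The signs of 8 others (ACACA, ELOVL1, SCD, CPT1A, ACADM, HADHB, DECR1 and ACOX3), none called, differed between scalings. With TMM factors the log2 ratios of the step sums were 0.75 for synthesis, -0.17 for elongation, 0.31 for desaturation, 1.03 for activation, 0.84 for oxidation and 0.63 for all members, against 0.27, -0.65, -0.17, 0.54, 0.35 and 0.15 by CPM. Desaturation thus changed direction. By CPM and without the most abundant member of each step, the log2 ratios were 0.078 for synthesis, -0.58 for elongation and 0.064 for desaturation. They were -3.29 for activation and 0.42 for oxidation. Activation thus rested on ACSL1, desaturation changed sign without SCD, and synthesis fell from 0.27 without FASN.

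By ETV1, 3 members were higher against cells with at least 1 ETV1 UMI, at a minimum of 100 UMIs and in G2M cells alone, in place of 5, and 7 were higher in G1 cells alone and at the smaller fold tried. In place of 1, 2 were lower against at least 4 ETV1 UMIs, with counts as deposited and in S cells, and 3 in G1 cells and at that smaller fold. Between the libraries counting error limits ELOVL4, SCD5 and ACSL5 most, and by ETV1 these, ELOVL2, ACSL4 and SPART, all under 100 UMIs. No paired analysis was possible because each line has 1 library.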
